A study of Mus musculus with 4 samples.

Results

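The SLC25 genes encode the mitochondrial carriers, and their transcripts were followed here across the cell classes, hepatocyte zones and genotypes of mouse liver. Genes whose symbol begins with Slc25a and a number were taken, apart from pseudogenes and a few symbols not reported here. This gave 45 genes of the 32285 counted. Of these, 42 held at least 50 unique molecular identifiers (UMIs, each standing for 1 captured transcript) over the 4 libraries and are described below. They held 522880 UMIs, 0.312% of all 167455068. Slc25a31, Slc25a41 and Slc25a54 held fewer than 50 and were not tested. Members of the family with other names, such as the Ucp genes, were outside the rule.

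Nuclei isolated from non-tumor liver of male mice were captured in droplets and their transcripts sequenced and counted (single-nucleus RNA sequencing). All mice had received diethylnitrosamine (DEN), a carcinogen that liver cells activate, at 25 mg/kg when 14 days old, and were killed at 12 months, so no group without DEN was measured. By genotype there were 2 Brca1-WT libraries and 2 labelled Brca1-KO, described only as biological replicates. How many mice each held, which Brca1 exons were deleted and in which cells the labels do not say, so genotype p-values measure the spread between these libraries. Cell classes and zones were compared within libraries, so their p-values measure how far those differences vary from library to library.

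Most SLC25 proteins sit in the inner mitochondrial membrane and exchange what the matrix and cytosol share: nucleotides and cofactors, phosphate, di- and tricarboxylates, amino acids, acylcarnitines and iron. In hepatocytes they join the cytosolic and mitochondrial steps of gluconeogenesis, ureagenesis, fatty acid oxidation, lipogenesis and haem synthesis. Hepatocytes near the portal vein (periportal) and near the central vein (pericentral) differ in these pathways, a division of labour called zonation.

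Promoters of 4 carriers are shown because these genes had the largest zone differences in each direction among carriers with an entry in the table used. Each is the 250 bases before the gene's annotated start, 5′ to 3′, from RefSeq (GRCm38.p6), where 32 of the 42 carriers had entries. Slc25a47 (liver-enriched carrier, periportal side higher) lies at chr12:108850879-108851128 (plus strand), and Slc25a18 (glutamate carrier, periportal side higher) at chr6:120773518-120773767 (plus strand). Slc25a21 (oxodicarboxylate carrier, pericentral side higher) is given for the more upstream of 2 starts at chr12:57197473-57197722 (minus strand), and Slc25a33 (pyrimidine nucleotide carrier, pericentral side higher) at chr4:149774268-149774517 (minus strand). Capitals mark the motif matches described after the zone results, and a match on the other strand is printed as its reverse complement.
Slc25a47: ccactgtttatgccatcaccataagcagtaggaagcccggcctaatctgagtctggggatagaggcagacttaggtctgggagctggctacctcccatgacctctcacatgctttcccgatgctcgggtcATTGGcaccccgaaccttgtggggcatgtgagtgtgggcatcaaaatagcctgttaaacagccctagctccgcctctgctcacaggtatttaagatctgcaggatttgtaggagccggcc
Slc25a18: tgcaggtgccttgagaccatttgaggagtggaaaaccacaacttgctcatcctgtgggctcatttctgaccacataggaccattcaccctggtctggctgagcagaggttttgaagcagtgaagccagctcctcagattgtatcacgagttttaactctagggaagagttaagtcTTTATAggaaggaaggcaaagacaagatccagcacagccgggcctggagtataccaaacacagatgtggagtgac
Slc25a21: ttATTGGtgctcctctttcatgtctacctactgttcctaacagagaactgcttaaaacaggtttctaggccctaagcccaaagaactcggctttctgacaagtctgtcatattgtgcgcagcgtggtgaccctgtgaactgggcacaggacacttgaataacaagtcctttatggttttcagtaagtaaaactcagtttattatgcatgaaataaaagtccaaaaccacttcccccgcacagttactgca
Slc25a33: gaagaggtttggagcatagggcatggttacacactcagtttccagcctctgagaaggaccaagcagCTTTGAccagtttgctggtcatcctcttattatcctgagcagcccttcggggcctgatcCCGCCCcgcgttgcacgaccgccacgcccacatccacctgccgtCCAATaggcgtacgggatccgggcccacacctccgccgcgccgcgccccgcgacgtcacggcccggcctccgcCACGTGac

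The 4 libraries held 5209 to 7833 barcodes and 36662067 to 45638888 UMIs. Pairs of libraries shared 9 to 20 barcodes, at most 0.292% of the smaller library. After filters, 4795 to 6970 nuclei a library remained. Clusters, made without any carrier gene, were called hepatocyte-like, endothelial-like, stellate or mesenchymal-like, macrophage-like, T or NK-like and B-like from marker genes. Libraries held 2573 to 4091 hepatocyte-like nuclei, with median depths of 5950 to 9513 UMIs. Brca1, the targeted gene, is given first as a check of the labels, as CPM (counts scaled to a common library total after TMM correction for composition). In hepatocyte-like nuclei it stood at 13.1 CPM in Brca1-WT replicate 1, 12.2 in replicate 2, 18.4 in Brca1-KO replicate 1 as labelled and 6.06 in Brca1-KO replicate 2. The highest level of the 4 was thus in a library labelled Brca1-KO, and Brca1 did not separate the groups (log2 fold change -0.06, standard error 0.53, edgeR adjusted p 0.999). The library labelled Brca1-KO replicate 2 stood apart: 94.7% of its hepatocyte-like nuclei lay in 3 clusters that held 0.117% to 2.54% of those of the other libraries. Whether that separation belongs to genotype, animal or preparation cannot be told apart.

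Wherever 4 values follow each other below, they are Brca1-WT replicates 1 and 2, then the libraries labelled Brca1-KO replicates 1 and 2. UMIs were summed per library before any test, and a gene passed at an edgeR adjusted p below 0.05 over all genes tested. CPM are not corrected for gene length, so levels are compared within a gene and never between genes. Of the 42 carriers, 13 overlap a gene on the opposite strand, among them Slc25a10, Slc25a11, Slc25a18, Slc25a21, Slc25a23, Slc25a25, Slc25a26, Slc25a33, Slc25a36, Slc25a37 and Slc25a53. The sources used here do not say if counting used strand, so their counts could hold reads of the partner.

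Most carriers were higher in hepatocytes than in the other classes. Of the 38 that passed the filter on low counts, 24 (63.2%) were higher in hepatocyte-like nuclei than in the mean of the 5 other classes, where 36.1% of all 11450 genes were. Another 9 (23.7%) were lower, where 32% of all genes were, and in either direction 68.1% of all genes passed. The median log2 difference of the carriers was 0.75, and that of all genes was -0.00. The highest mean level was in hepatocyte-like nuclei for 21 carriers, stellate or mesenchymal-like for 7, T or NK-like for 4, macrophage-like for 3, endothelial-like for 2 and B-like for 1. Leaving out Brca1-WT replicate 1 or the library labelled Brca1-KO replicate 1 left 4 and 5 carriers lower in hepatocyte-like nuclei in place of 9. Thinning drew each nucleus with at least 1000 UMIs down to 1000 and left the others out. After it, 14 carriers were higher in place of 24. Thinned sums hold fewer UMIs, so a carrier can then also fall below the filter on low counts. The share of all genes passing in these settings is not given here, so a change particular to carriers cannot be read from them.

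Droplets also hold free RNA, which puts hepatocyte transcripts into other nuclei. The median of 8 hepatocyte markers stood in the other classes at 20.8% to 66.8% of its hepatocyte-like level, by class and library. It was 20.8% to 26.6% in stellate or mesenchymal-like nuclei, 29.1% to 56.0% in endothelial-like, 29.7% to 42.0% in macrophage-like, 34.9% to 56.5% in T or NK-like and 53.7% to 66.8% in B-like nuclei. A carrier level in another class at or below these shares was read as background. No correction for free RNA was made.

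The largest positive differences were those of Slc25a34, Slc25a48, Slc25a21, Slc25a22 and Slc25a42. Values after ± are standard errors unless marked SD. Slc25a42, which imports coenzyme A, stood at 207, 187, 186 and 162 CPM in hepatocyte-like nuclei and at 20.8, 22.7, 21.5 and 40.7 CPM in endothelial-like nuclei. The hepatocyte-like libraries all lay above every other class, and the log2 difference from the mean of the others was 2.39 (standard error 0.14, edgeR adjusted p 5.4e-16). Slc25a21, which exchanges 2-oxoadipate for 2-oxoglutarate in lysine and tryptophan breakdown, stood at 1385, 850.0, 914 and 991 CPM against 161, 105, 108 and 221 CPM in macrophage-like nuclei (2.42 ± 0.14 against the mean of the others). With nuclei thinned to 1000 UMIs, 64.7, 45.4, 49.6 and 46.8% of hepatocyte-like nuclei held a Slc25a21 UMI, against 15.8, 8.68, 11.2 and 18.4% of macrophage-like nuclei. Before thinning, over all nuclei of each class, the shares were 95.9, 85.4, 92.9 and 89.3% and 25.8, 15.3, 18.1 and 29.0%. Median depths were 5950 to 9513 UMIs in hepatocyte-like and 1413 to 1701 in macrophage-like nuclei, and the thinned shares were higher in hepatocyte-like nuclei in every library.

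Glutamate carrier Slc25a22 stood at 225, 198, 182 and 64.0 CPM in hepatocyte-like nuclei and at 34.0, 27.4, 18.6 and 10.8 CPM in stellate or mesenchymal-like nuclei (2.41 ± 0.12 against the mean of the others). The library labelled Brca1-KO replicate 2 was the lowest in all 6 classes. In stellate or mesenchymal-like and macrophage-like nuclei the Slc25a22 level lay at or below the share of the hepatocyte markers. The part of free RNA there was not tested. Slc25a51, the mitochondrial NAD importer, differed by 2.08 ± 0.11, and Slc25a20, which brings acylcarnitines to fatty acid oxidation, by 2.12 ± 0.12. Slc25a48, described as a choline transporter, differed by 2.51 ± 0.19 and Slc25a34, an orphan, by 2.54 ± 0.27. Slc25a23 and Slc25a25, both calcium-regulated ATP-Mg/phosphate carriers, differed by 2.01 ± 0.13 and 1.42 ± 0.24. Slc25a47, a carrier known for its liver-enriched expression, differed by 1.68 ± 0.11. All 10 named so far were highest in hepatocyte-like nuclei in each library, except Slc25a25, for which the library labelled Brca1-KO replicate 2 stood at 46.8 CPM there and at 112 CPM in macrophage-like nuclei. Textbook hepatic carriers were also higher: Slc25a1, which exports citrate for lipogenesis (1.15 ± 0.26), Slc25a10, the dicarboxylate carrier (1.22 ± 0.17), and Slc25a11, the oxoglutarate/malate carrier (0.56 ± 0.19). Slc25a11 averaged 19.3 ± 5.21 CPM in hepatocyte-like and 18.3 ± 2.87 CPM in macrophage-like nuclei (SD, n = 4), and its highest mean was in T or NK-like nuclei at 20.9 ± 9.61 CPM. Neither class differed from hepatocyte-like nuclei beyond the spread (log2 differences 0.04 ± 0.28 and -0.13 ± 0.33). Of the others, Slc25a32, which carries folate, differed by 1.25 ± 0.12, the glycine carrier Slc25a38 by 1.15 ± 0.14, the branched-chain amino acid carrier Slc25a44 by 1.07 ± 0.19, Slc25a30 by 0.92 ± 0.17, Slc25a39 by 0.82 ± 0.16, the peroxisomal Slc25a17 by 0.77 ± 0.13 and Slc25a16 by 0.72 ± 0.16. The phosphate carrier Slc25a3, which every respiring cell needs, differed by 0.18 ± 0.11 and did not pass, nor did Slc25a46 (0.13 ± 0.14).

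**Figure D1:**
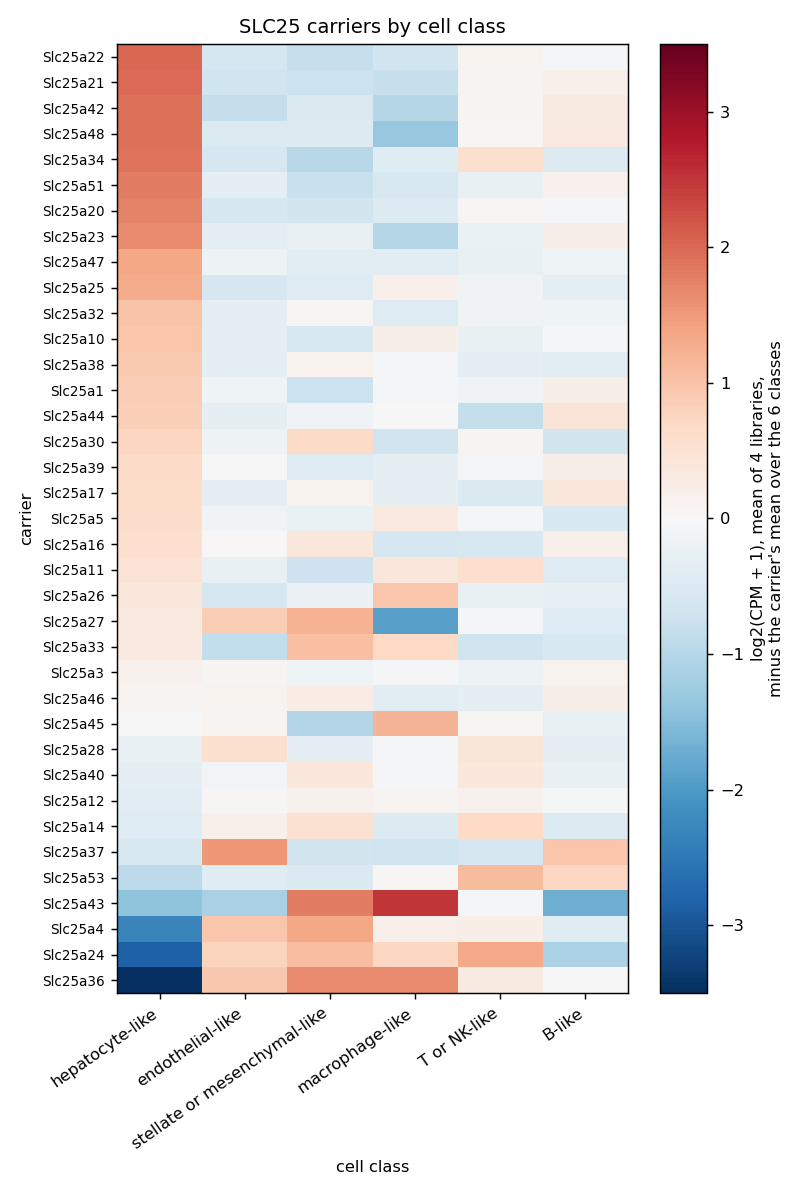
Each row is 1 of 37 of the carriers tested and each column a cell class; colour is the log2(CPM + 1) of the mean of 4 libraries, minus the carrier's mean over the 6 classes. The upper rows are red in the hepatocyte-like column, and Slc25a36, Slc25a24, Slc25a4 and Slc25a43 at the bottom are blue there.

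A small group of carriers was nearly missing from hepatocyte-like nuclei. Slc25a36, which carries pyrimidine nucleotides, stood at 1.26, 0.693, 0.686 and 0.843 CPM in hepatocyte-like nuclei. In stellate or mesenchymal-like nuclei it stood at 120.1, 153, 142 and 133 CPM, in macrophage-like at 137, 182, 126 and 101 CPM and in endothelial-like at 90.2, 102, 92.8 and 43.9 CPM. Every library of the 5 other classes lay above the hepatocyte-like libraries, and the log2 difference from the mean of the others was -6.49 (standard error 0.21, edgeR adjusted p 8.5e-22). Thinned to 1000 UMIs, 0.145, 0.0250, 0.0390 and 0.0983% of hepatocyte-like nuclei and 9.83, 12.0, 10.2 and 10.7% of stellate or mesenchymal-like nuclei held a Slc25a36 UMI. Over all nuclei of each class, before thinning, the shares were 1.15, 0.448, 0.700 and 0.660% and 22.5, 24.0, 25.2 and 22.4%.

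The adenine nucleotide translocases, which exchange matrix ATP for cytosolic ADP, had unlike patterns by class. Slc25a4 stood at 0.114, 0.0770, 0.114 and 0.151 CPM in hepatocyte-like nuclei, 13 UMIs in all, and at 20.6, 13.3, 13.7 and 5.42 CPM in stellate or mesenchymal-like nuclei (-5.61 ± 0.53 against the mean of the others). Slc25a5, by contrast, averaged 14.2 ± 4.40 CPM in hepatocyte-like nuclei and 7.57 ± 4.95 CPM in stellate or mesenchymal-like nuclei (SD, n = 4). Its log2 difference from the mean of the others was 0.79 (standard error 0.20, edgeR adjusted p 0.000834). Against single classes it did not pass for macrophage-like (0.28 ± 0.30), T or NK-like (0.71 ± 0.40) or B-like nuclei (1.10 ± 0.53). The ATP-Mg/phosphate carrier Slc25a24 was at 0.153, 0.0770, 0.152 and 0.211 CPM in hepatocyte-like nuclei, 17 UMIs in all, and at 23.8, 20.8, 17.98 and 15.4 CPM in T or NK-like nuclei (-5.82 ± 0.66). Its relatives Slc25a23 and Slc25a25 had the opposite direction. Slc25a43, an orphan on the X chromosome, held 25 UMIs in hepatocyte-like nuclei and none in B-like nuclei, which allows up to 3 UMIs there. Its fitted difference from the mean of the others includes that empty class and is not given. Slc25a43 was not among the 9 carriers called lower in hepatocyte-like nuclei. Against macrophage-like nuclei alone, where it stood at 22.8, 19.4, 14.3 and 12.8 CPM, its log2 difference was -6.12 (standard error 0.45, edgeR adjusted p 1.3e-12).

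The iron carriers had their highest mean level in endothelial-like nuclei, although T or NK-like nuclei were close for Slc25a28. Slc25a37 (mitoferrin 1), which brings iron into mitochondria for haem and iron-sulfur clusters, stood at 188, 175, 162 and 129 CPM in endothelial-like nuclei, at 139, 90.9, 85.0 and 128 CPM in B-like nuclei and at 35.5, 36.1, 24.7 and 55.5 CPM in hepatocyte-like nuclei. The endothelial-like libraries all lay above the hepatocyte-like ones, and that log2 difference was -2.17 (standard error 0.19, edgeR adjusted p 1.3e-11). Hepatocyte-like nuclei differed in Slc25a37 from stellate or mesenchymal-like nuclei by 0.075 and from macrophage-like nuclei by 0.16, and neither difference passed. Slc25a28 (mitoferrin 2) was lower in hepatocyte-like than in endothelial-like nuclei by -0.83 (standard error 0.15, edgeR adjusted p 8.3e-06). Hepatocyte-like nuclei differed in it from stellate or mesenchymal-like nuclei by 0.049 and from B-like nuclei by 0.0037. In the genotype fits, each scaled apart, Slc25a28 stood at 53.7, 49.7, 54.3 and 47.5 CPM in T or NK-like nuclei. Endothelial-like nuclei stood there at 46.4, 43.8, 37.1 and 43.7 CPM, so the order of these classes depends on scaling.

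Single classes also had the highest level of carriers that hepatocyte-like nuclei hold, of which Slc25a26, Slc25a45 and Slc25a27 were chosen after their values were seen. Slc25a26, which imports S-adenosylmethionine, stood at 83.2, 146, 126 and 148 CPM in macrophage-like and 73.7, 88.7, 94.9 and 73.4 CPM in hepatocyte-like nuclei (log2 difference -0.60, standard error 0.15, edgeR adjusted p 0.000741). Against the mean of all other classes it was higher in hepatocyte-like nuclei (0.44 ± 0.11). Slc25a45, a relative of the basic amino acid carrier Slc25a29, was at 44.3, 54.1, 41.2 and 17.4 CPM in macrophage-like and 19.4, 17.2, 20.5 and 9.15 CPM in hepatocyte-like nuclei (log2 difference -1.24, standard error 0.23, edgeR adjusted p 2.0e-05). For both carriers macrophage-like nuclei were the higher in every library. Slc25a27, an uncoupling protein relative, was highest in stellate or mesenchymal-like nuclei at 49.0 ± 17.4 CPM and lowest in macrophage-like nuclei at 4.74 ± 1.10 CPM (SD, n = 4). Slc25a53, an orphan on the X chromosome, averaged 46.1 ± 6.78 CPM in T or NK-like and 10.6 ± 2.80 CPM in hepatocyte-like nuclei (SD, n = 4), and differed from the mean of the others by -1.17 ± 0.16. Slc25a12, which with cytosolic enzymes forms the malate-aspartate shuttle, differed by -0.46 ± 0.10, Slc25a14, another uncoupling protein relative, by -0.65 ± 0.23, and Slc25a40, related to the glutathione carrier Slc25a39, by -0.46 ± 0.15.

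**Figure D2:**
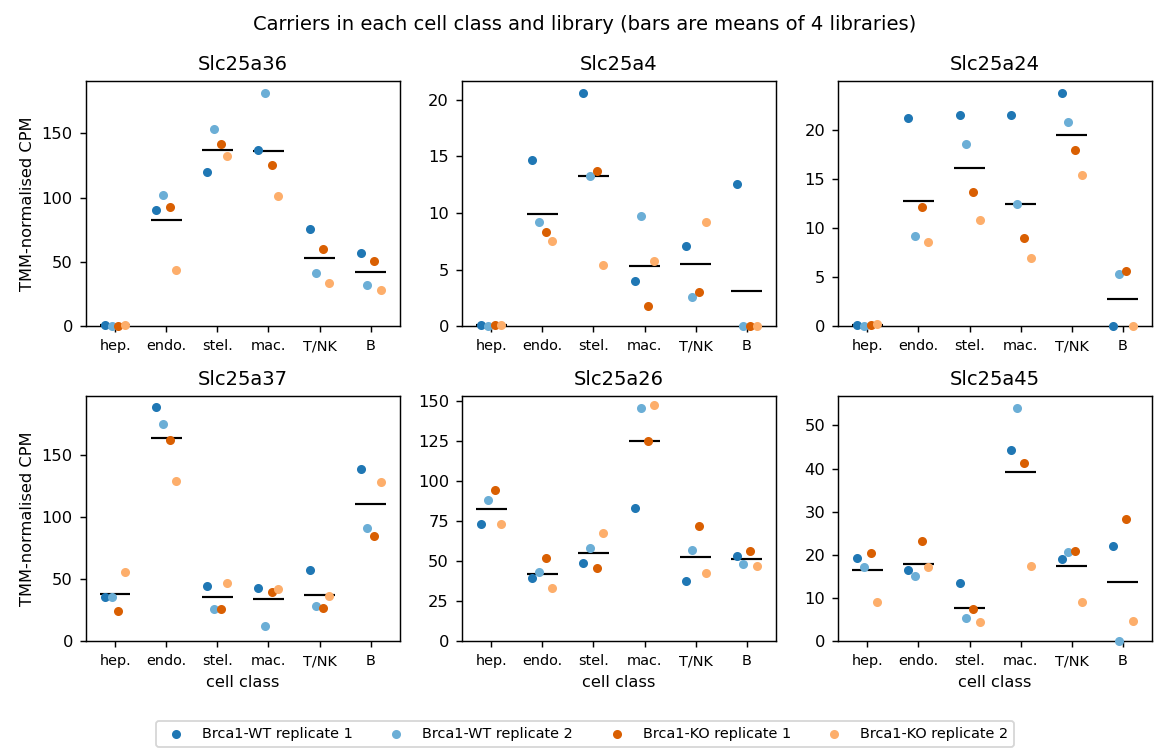
TMM-normalised CPM of 6 carriers (vertical axes, linear) in each cell class; points are libraries and bars are means of 4 libraries. Slc25a36, Slc25a4 and Slc25a24 sit near 0 in hepatocyte-like nuclei (hep.), Slc25a37 is highest in endothelial-like nuclei (endo.), and Slc25a26 and Slc25a45 are highest in macrophage-like nuclei (mac.).

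Single pairs of classes gave a similar division. Hepatocyte-like nuclei were higher for 23 carriers and lower for 9 against endothelial-like nuclei, where 33% and 36.9% of all genes were (69.9% in all). The counts were 21 and 9 against stellate or mesenchymal-like nuclei (all genes 31.3% and 34.3%, 65.7% in all) and 20 and 8 against macrophage-like nuclei (32.8% and 32.4%, 65.2% in all). They were 19 and 9 against T or NK-like nuclei (31.6% and 25.5%, 57.1% in all) and 16 and 6 against B-like nuclei (27.9% and 19%, 46.9% in all). Compared with free RNA, 17 carriers stood in stellate or mesenchymal-like nuclei above the share reached by any of the 8 hepatocyte markers in all 4 libraries, and 13, 10, 9 and 7 did so in macrophage-like, endothelial-like, T or NK-like and B-like nuclei. The share of all genes above that level was not counted, so these numbers do not set carriers apart from other genes. Slc25a2, Slc25a18, Slc25a29 and Slc25a35 did not pass the filter of the class comparison. Even so, the counts above include Slc25a35 in stellate or mesenchymal-like and endothelial-like nuclei and Slc25a29 in B-like nuclei. Outside hepatocyte-like nuclei the glutamate carrier Slc25a18 held 0 to 15 UMIs a class and the basic amino acid carrier Slc25a29 held 1 to 13, too few to order the classes.

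Hepatocyte-like nuclei were next divided by zone. Each nucleus received a score from 12 pericentral and 10 periportal marker genes, none of them a carrier. The nuclei of each library were split by score into 3 equal bins, and the periportal-side and pericentral-side bins were compared within the library. Every one of the 22 markers, scored without itself, lay on the side it marks in all 4 libraries. Between 14.4% and 17.1% of nuclei lay within 0.1 SD of a boundary. Bins of a library had similar depths, except that the library labelled Brca1-KO replicate 2 had a median of 8511 UMIs on the pericentral side and 6748 on the periportal side.

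Of 36 carriers that passed the filter, 13 (36.1%) were higher on the periportal side, where 13.9% of all 12698 genes were, and 3 (8.33%) on the pericentral side, where 12.6% of all genes were. In either direction 16 carriers (44.4%) passed and 26.5% of all genes. All 16 lay on the same side in each of the 4 libraries. The median log2 difference, pericentral minus periportal, was -0.14 for the carriers and -0.01 for all genes. Leaving out the library labelled Brca1-KO replicate 2 gave 5 carriers higher on the pericentral side in place of 3. With nuclei thinned to 1000 UMIs, 7 passed on the periportal side in place of 13. A carrier whose thinned counts fall below the filter is no longer tested and so cannot pass. For these settings too the share of all genes passing is not given here. The other 20 carriers differed by -0.23 to 0.34 and did not pass. Slc25a2, Slc25a4, Slc25a24, Slc25a35, Slc25a36 and Slc25a43 were too low in hepatocyte-like nuclei to be tested. Pairs joined by "against" in the zone paragraphs are periportal-side and pericentral-side levels of a library.

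The largest periportal-side difference was that of a cofactor carrier. Slc25a51, the NAD importer, stood at 650.2 against 253, 692 against 354, 1317 against 776 and 305 against 126 CPM. Levels differed widely between libraries, and the periportal side was the higher in each, with a log2 difference of -1.09 (standard error 0.10, edgeR adjusted p 0.000262). Slc25a12, an aspartate/glutamate carrier of the shuttle, stood at 101 against 72.6, 68.5 against 44.4, 104 against 60.0 and 52.8 against 38.1 CPM (log2 difference -0.59, standard error 0.07, edgeR adjusted p 7.6e-05). Slc25a11, which brings oxoglutarate out and malate in for the same shuttle, stood at 19.1 against 14.2, 23.1 against 16.1, 22.7 against 19.2 and 12.0 against 9.201 CPM (log2 difference -0.39, standard error 0.08, edgeR adjusted p 0.00540), and did not pass after thinning (edgeR adjusted p 0.208). Slc25a10, which exchanges dicarboxylates for phosphate, differed by -0.29 (standard error 0.09, edgeR adjusted p 0.0395) and did not pass without Brca1-WT replicate 2 (edgeR adjusted p 0.189) or with the library labelled Brca1-KO replicate 1 left out (0.151).

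The liver-enriched Slc25a47 and 2 amino acid carriers, Slc25a18 and Slc25a29, followed Slc25a51 in the size of the difference. Slc25a47 stood at 376 against 159.7, 283 against 142, 233 against 117 and 203 against 109 CPM (log2 difference -1.03, standard error 0.06, edgeR adjusted p 6.9e-07). Slc25a18, a glutamate carrier, stood at 8.19 against 4.69, 5.34 against 3.13, 6.97 against 4.16 and 4.58 against 2.53 CPM (log2 difference -0.79, standard error 0.14, edgeR adjusted p 0.00177). Mean Slc25a47 levels went from 274 ± 75.7 to 132 ± 23.1 CPM (SD, n = 4). Slc25a29, which carries basic amino acids, stood at 4.09 against 2.09, 5.84 against 2.93, 6.15 against 4.89 and 3.23 against 1.69 CPM (log2 difference -0.77, standard error 0.18, edgeR adjusted p 0.00992), and did not pass with DESeq2 (adjusted p 0.0523) or without Brca1-WT replicate 2 (edgeR adjusted p 0.0664). Slc25a22, the other glutamate carrier, stood at 193 against 215, 149 against 189.6, 153 against 172 and 58.9 against 56.0 CPM and did not pass (log2 difference 0.16, standard error 0.06, edgeR adjusted p 0.104), nor did the glycine carrier Slc25a38 (0.09 ± 0.06).

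Slc25a3, Slc25a30, Slc25a25, Slc25a23, Slc25a20 and Slc25a39 were also higher on the periportal side. Slc25a3, which imports the phosphate used by ATP synthase, stood at 157 against 114, 198 against 151, 179.9 against 130.3 and 127 against 86.0 CPM (log2 difference -0.47, standard error 0.05, edgeR adjusted p 5.4e-05). The 4 libraries gave closely similar ratios. Slc25a30, an uncoupling protein relative, differed by -0.64 ± 0.08, Slc25a25 by -0.42 ± 0.08 and its relative Slc25a23 by -0.19 ± 0.05. For Slc25a25 the library labelled Brca1-KO replicate 2 stood at 45.7 against 42.4 CPM, the smallest ratio of the 4. Slc25a20, the carnitine/acylcarnitine carrier, stood at 206 against 168, 268 against 193, 210.0 against 167 and 139.7 against 135 CPM (log2 difference -0.29, standard error 0.06, edgeR adjusted p 0.00763), and did not pass without Brca1-WT replicate 2 (edgeR adjusted p 0.0594). Slc25a39, which imports glutathione, differed by -0.31 ± 0.06. Slc25a5 differed by -0.19 (standard error 0.14, edgeR adjusted p 0.371) and Slc25a1 by -0.05 (standard error 0.09, edgeR adjusted p 0.731), and neither passed.

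The 3 carriers higher on the pericentral side serve amino acid breakdown, pyrimidine nucleotides and iron. Slc25a21 stood at 851 against 1578, 429 against 1041, 523 against 1093 and 482 against 1283 CPM. The smallest log2 ratio of a library was 0.89, and the fitted difference was 1.16 (standard error 0.08, edgeR adjusted p 1.1e-05). Slc25a33, a pyrimidine nucleotide carrier, stood at 22.1 against 30.7, 41.8 against 64.8, 31.8 against 49.4 and 14.9 against 31.2 CPM (log2 difference 0.69, standard error 0.09, edgeR adjusted p 0.000245). Slc25a37 stood at 26.8 against 34.2, 27.3 against 35.2, 17.8 against 26.1 and 37.6 against 64.6 CPM (log2 difference 0.53, standard error 0.08, edgeR adjusted p 0.000850). The library labelled Brca1-KO replicate 2 had the largest ratio of the 4 for each of these 3 carriers. The coenzyme A carrier Slc25a42, in contrast, differed by -0.02 (standard error 0.05, edgeR adjusted p 0.837) and did not pass. The S-adenosylmethionine carrier Slc25a26 was higher on the pericentral side in each of the 4 libraries by a small amount (0.16 ± 0.07) and did not pass, and Slc25a44 was lower there in each (log2 difference -0.23, standard error 0.08, edgeR adjusted p 0.0578).

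**Figure D3:**
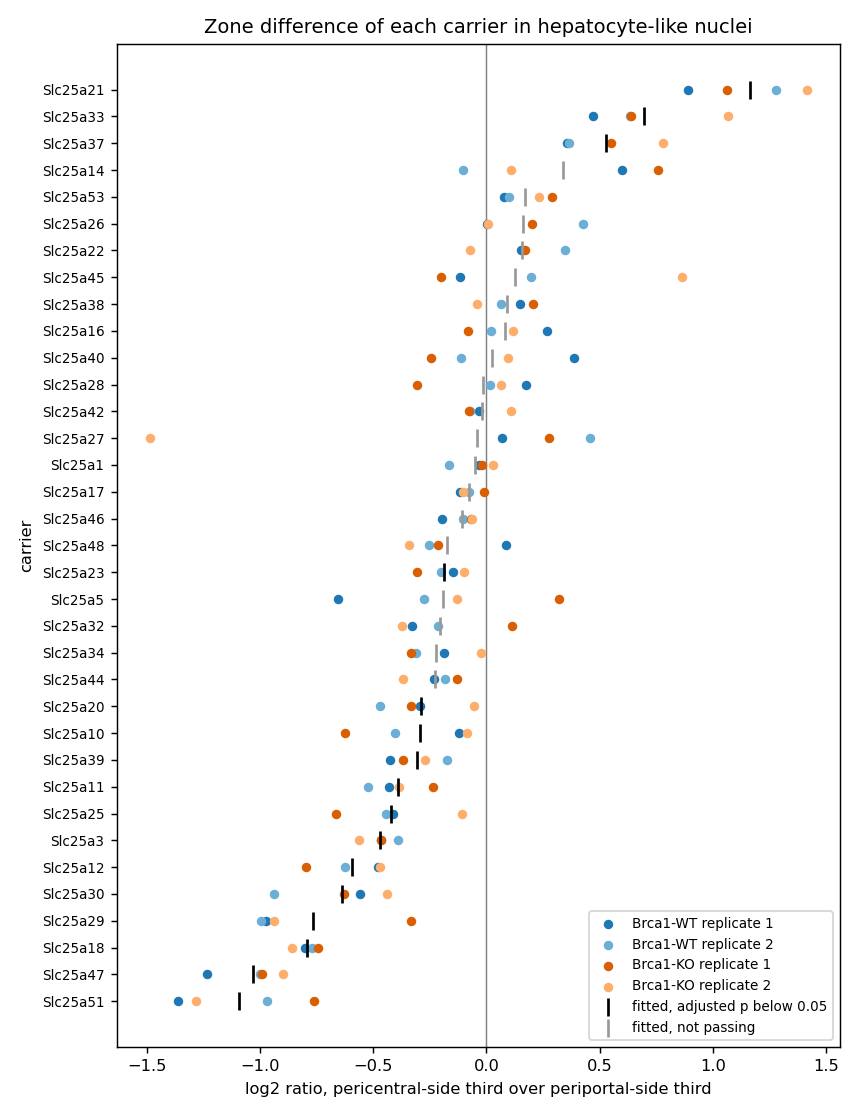
Log2 ratio of the pericentral-side over the periportal-side bin (horizontal axis) for 35 of the carriers tested; points are the 4 libraries and ticks the fitted difference, black where the edgeR adjusted p was below 0.05. Points of Slc25a51, Slc25a47 and Slc25a18 all lie left of 0 and those of Slc25a21, Slc25a33 and Slc25a37 all right of it, while Slc25a27 has 1 library far to the left.

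Nuclei of each library were also split by score into 10 equal bins, numbered from the periportal side. Mean Slc25a51 levels (CPM without TMM scaling) went from 778 in bin 1 to 229 in bin 10, and mean Slc25a47 levels from 285 to 107. Mean Slc25a21 levels went from 523 in bin 1 to 1532 in bin 10. Slc25a12 went from 84.3 to 46.5 CPM between the same bins. Slc25a33 was lowest in bin 2 at 26.3 CPM and highest in bin 10 at 51.4 CPM, and Slc25a37 was lowest in bin 1 at 25.2 CPM and highest in bin 10 at 48.6 CPM.

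**Figure D4:**
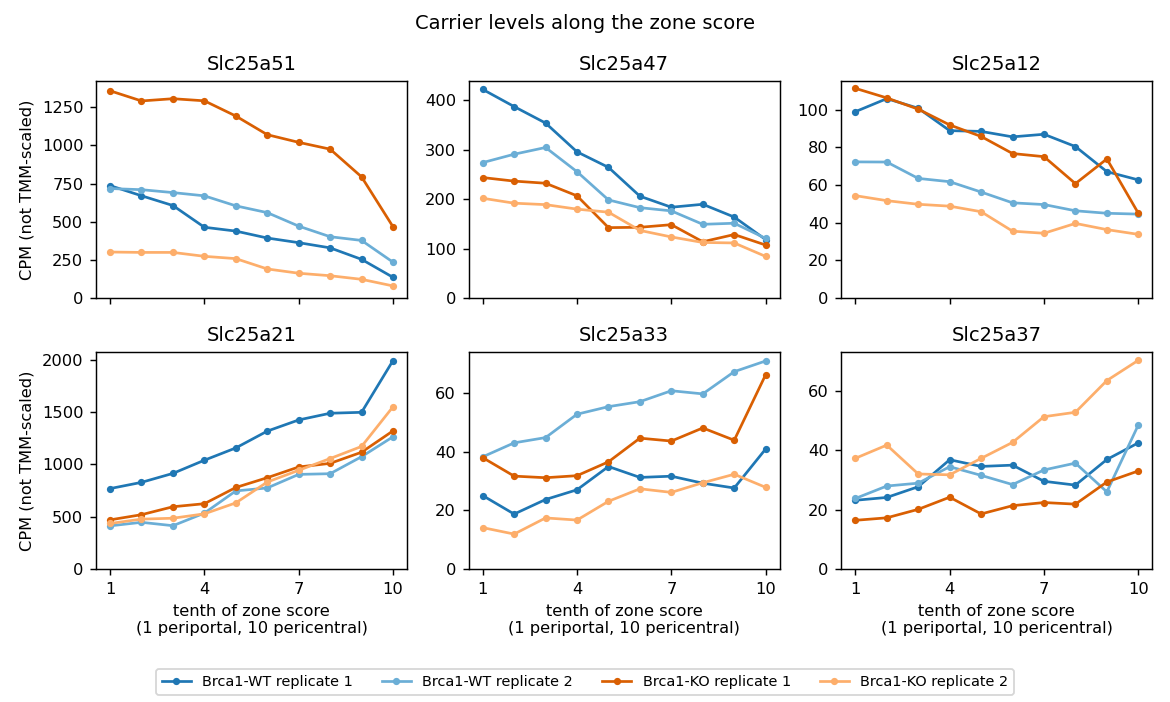
CPM (vertical axes, linear) of 6 carriers along 10 equal bins of the zone score within each library (horizontal axes, 1 periportal to 10 pericentral); lines are libraries. Slc25a51, Slc25a47 and Slc25a12 decline and Slc25a21 climbs from bin 1 to bin 10 in all 4 libraries, and the libraries differ in overall level.

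Short motifs were searched on both strands of the printed promoters. The Slc25a47 window held CCAAT once, on the minus strand with its first printed base 120 bases before the start (-120). Slc25a18 held TATAAA on the minus strand (-75), and Slc25a21 held CCAAT on the minus strand (-248). Slc25a33 held CTTTGA, a TCF/LEF motif (-184), GGGCGG, a GC box, on the minus strand (-125), CCAAT (-81) and CACGTG, an E-box (-8). No printed match shared a base with another. A GC box was in 29 of 41 carrier windows (70.7%) and in 32.7% of all 32851 windows of that length, and CCAAT was in 48.8% and 33.8%. TATAAA was in 4.88% of carrier windows and 12.4% of all, CTTTGA in 12.2% and 13.8%, and CACGTG in 12.2% and 6.02%. TGACGTCA, a cAMP response element, was in 4.88% and 1.55%. CAAAGTCCA (HNF4), TCAAGGTCA (estrogen-related receptor) and the NRF1 motif were in 0 carrier windows and in 0.384%, 0.387% and 0.782% of all windows.

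Genes that work beside the carriers were read from 4 lists. Of 23 enzymes that use what carriers move, 9 were higher on the periportal side and 4 on the pericentral side, with a median log2 difference of -0.15. Among all genes 13.9% were higher on the periportal side and 12.6% on the pericentral side. Acly, which cleaves exported citrate to acetyl-CoA, stood at 54.3 against 14.2, 57.8 against 18.2, 61.3 against 17.4 and 70.3 against 18.3 CPM (log2 difference -1.84, standard error 0.07, edgeR adjusted p 2.9e-08). Cpt1a, which forms acylcarnitines, differed by -0.37 ± 0.05 and Mdh1, of the malate-aspartate shuttle, by -0.38 ± 0.05. Cs, citrate synthase, had the opposite direction (0.47 ± 0.08). The 9 include Gls2, which entered the zone score and so shows nothing by its difference. Of 24 other mitochondrial transport genes, 7 were higher on the periportal side and 2 on the pericentral side (median -0.10). The serine transporter Sfxn1 stood at 372 against 34.3, 574 against 91.7, 454 against 101 and 302 against 58.9 CPM (log2 difference -2.62, standard error 0.25, edgeR adjusted p 0.00480). Of 8 regulators of mitochondrial genes, 3 were higher on the periportal side and 0 on the pericentral side (median -0.12): Ppargc1b (-1.06 ± 0.05), its partner receptor Esrra (-0.99 ± 0.05) and Ppargc1a (-0.77 ± 0.14). None of the 12 genes that import and insert carriers passed (median -0.08). Against other classes, 22 of 24 partner enzymes, 15 of 24 transport genes, 7 of 8 regulators and 3 of 8 import genes were higher in hepatocyte-like nuclei, and 1, 4, 0 and 1 were lower. Among all genes 36.1% were higher and 32% lower, so the share of import genes that were higher was close to that of all genes.

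Genotype was compared as Brca1-KO minus Brca1-WT. In hepatocyte-like nuclei, 0 of 39 carriers passed, as did 0 of 15113 genes (0%), and 0 carriers had an unadjusted p below 0.05 with edgeR, where 499 genes (3.3%) did. DESeq2 also called 0 carriers. Of the 39, 29 (74.4%) had a negative log2 fold change, compared with 50.8% of all genes. The median was -0.16 for carriers and -0.01 for all genes. The groups did not overlap in 8 carriers. In 7 the labelled Brca1-KO pair was the lower, as in 16.9% of all genes, and in 1 the higher, as in 14.9%. The library labelled Brca1-KO replicate 2 was the lowest of the 4 in 27 of 39 carriers and in 32.2% of all genes. The summed carrier level was 3904, 3456, 3967 and 2428 CPM (2-sided exact permutation p 1, where 2 against 2 libraries cannot go below 0.33). The low sum came from the library that stood apart by its clusters, and the part of that separation in the result was not tested.

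Among carriers of smallest unadjusted p, Slc25a47 stood at 253, 207, 169 and 153 CPM. The groups did not overlap, and the log2 fold change was -0.52 (standard error 0.20, edgeR adjusted p 0.989). Slc25a22 stood at 197, 172, 162 and 57.5 CPM (log2 difference -0.75, standard error 0.50, edgeR adjusted p 0.989), with only the library labelled Brca1-KO replicate 2 far from the rest. The ADP/ATP carrier Slc25a5 stood at 13.2, 16.8, 11.9 and 7.90 CPM (-0.60 ± 0.29) and Slc25a20 at 182, 222, 182 and 136 CPM (-0.34 ± 0.23). The groups of Slc25a5 did not overlap, and those of Slc25a20 were apart by less than 1 CPM. Slc25a30 and Slc25a10 differed by -0.54 ± 0.30 and -0.49 ± 0.30, and their groups overlapped. Slc25a25 stood at 304, 208, 233 and 42.0 CPM (-0.90 ± 0.78), where 1 library labelled Brca1-KO lay between the Brca1-WT libraries and the other far below.

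Positive values were fewer. Slc25a51 stood at 431, 538, 1074 and 213 CPM (log2 difference 0.41, standard error 0.74, edgeR adjusted p 0.989). Its highest and lowest libraries were both labelled Brca1-KO. With replicate 1 of that label left out the value was -1.18, and with replicate 2 left out 1.16. Slc25a37, Slc25a26, Slc25a44 and Slc25a17 differed by 0.21 ± 0.40, 0.09 ± 0.21, 0.08 ± 0.24 and 0.09 ± 0.29, and each changed sign when 1 library was left out. Slc25a1, Slc25a11 and Slc25a42 differed by -0.13 ± 0.21, -0.14 ± 0.35 and -0.14 ± 0.19. Slc25a4, Slc25a24 and Slc25a43 did not pass the filter. In the 4 neighbouring lists 0 genes passed for genotype.

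**Figure D5:**
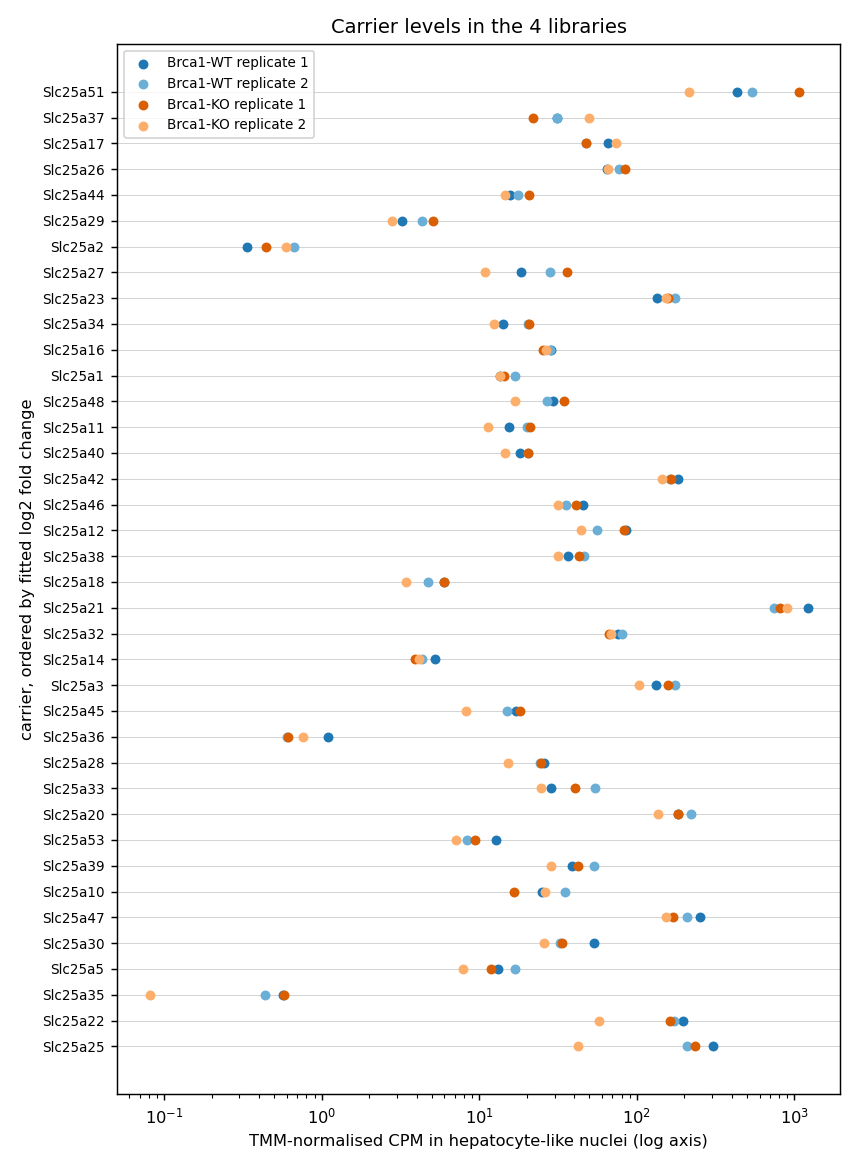
TMM-normalised CPM (horizontal axis, log scale) of 38 of the carriers tested in hepatocyte-like nuclei; points are the 4 libraries and rows are ordered by the fitted log2 fold change, labelled Brca1-KO over Brca1-WT. The light orange points of the library labelled Brca1-KO replicate 2 are leftmost in 27 of the 38 rows.

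The zone difference was not shown to depend on genotype. The interaction passed for 0 of 36 carriers and 0 of 12698 genes (0%). At an unadjusted edgeR p below 0.05 it held for 1 carrier, Slc25a5 (log2 0.56, edgeR adjusted p 0.9998), and for 396 genes (3.12%), and DESeq2 called 0 carriers. Slc25a27 stood at 17.6 against 18.5, 22.5 against 30.8, 30.9 against 37.3 and 15.5 against 5.55 CPM. The library labelled Brca1-KO replicate 2 alone was lower on the pericentral side. With replicate 1 of that label left out, which leaves 1 library on that side, the interaction of Slc25a27 was -1.76.

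In the other classes 0 carriers passed for genotype with edgeR, of 36 tested in endothelial-like, 34 in stellate or mesenchymal-like, 29 in macrophage-like, 22 in T or NK-like and 14 in B-like nuclei, and 0% of all genes passed in each. Unadjusted p below 0.05 held for 0, 3, 1, 1 and 1 of these carriers, and for 2.41%, 3.95%, 4.34%, 2.3% and 6.83% of all genes. Slc25a22 stood in stellate or mesenchymal-like nuclei at 29.7, 23.7, 16.1 and 9.30 CPM (log2 difference -1.11, standard error 0.36, edgeR adjusted p 0.991) and in macrophage-like nuclei at 38.8, 29.8, 22.1 and 14.4 CPM (-0.95 ± 0.40). In both classes Slc25a22 lay at or below the share of the hepatocyte markers in all 4 libraries, and the part of free RNA was not tested. Slc25a25 stood in stellate or mesenchymal-like nuclei at 78.1, 60.3, 53.5 and 34.9 CPM (-0.66 ± 0.28) and in B-like nuclei at 148, 139.8, 88.2 and 19.6 CPM (-1.48 ± 0.54). The B-like values also lay at or below the share of the hepatocyte markers in all 4 libraries, and the library labelled Brca1-KO replicate 2 was the lowest in hepatocyte-like nuclei too. Slc25a11 held only 35 UMIs in stellate or mesenchymal-like nuclei, at 7.81, 13.7, 2.14 and 3.87 CPM (-1.75 ± 0.61, edgeR adjusted p 0.991). Slc25a39 in T or NK-like nuclei stood at 33.9, 66.3, 21.7 and 11.9 CPM (-1.52 ± 0.63, edgeR adjusted p 0.9996).

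Leaving out a library labelled Brca1-KO leaves 1 library on that side, which the fit assumes to vary like the others. Calls from such fits are not read as results, and only log2 fold changes of the carriers called are given. Without replicate 1 of that label these were 1.10 for Slc25a21 and 1.02 for Slc25a23 in endothelial-like nuclei. In stellate or mesenchymal-like nuclei they were -0.97 for Slc25a25, -1.71 for Slc25a33 and -1.50 for Slc25a22. They were -1.48 for Slc25a45 in macrophage-like nuclei and -2.85 for Slc25a25 in B-like nuclei. Without replicate 2 of that label the value was 1.56 for Slc25a51 in B-like nuclei. Of these, Slc25a21 and Slc25a23 in endothelial-like nuclei lay at or below the share of the hepatocyte markers in all 4 libraries. So did Slc25a22 in stellate or mesenchymal-like and Slc25a25 in B-like nuclei, and Slc25a51 in B-like nuclei did so in 3 libraries. The part of free RNA in these values was not tested. In endothelial-like nuclei the marker share was 56.0% for the library labelled Brca1-KO replicate 2 and 29.1% to 36.2% for the others, and its part in the result was not tested. Slc25a33 in stellate or mesenchymal-like nuclei stood at 50.7, 102, 62.1 and 23.2 CPM, and Slc25a45 in macrophage-like nuclei at 45.8, 55.4, 42.4 and 17.98 CPM. In both the library labelled Brca1-KO replicate 2 was the lowest of the 4.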

How the data were processed

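The deposited values were raw UMI counts per gene and barcode for 4 libraries, not normalised by the authors. Per the file headers these counts came from Cell Ranger 6.0.0. The submitters' processing notes name GRCh38, a human build, while the gene identifiers in the files are mouse identifiers, so no source used here gives the mouse build, or says if intronic reads were counted. Promoters and their coordinates come from RefSeq (GRCm38.p6) and were matched by symbol.

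Nuclei had to hold 500 genes or more, with no more than 5% of UMIs from the mitochondrial genome. Doublets called by Scrublet (scanpy 1.11.5, expected rate 0.06) made up 2.99% to 11.3% of these and were removed. The libraries were clustered without batch correction and without any Slc25a gene into 20 clusters by the Leiden method at resolution 1 (python-igraph 0.11.9, 2000 variable genes, 30 components and 15 neighbours). A cluster was named from at least 3 markers, each in at least 10% of its nuclei, at a score 1.5 times that of the next class. This score was chosen with the data in view, and 5 clusters stayed unnamed.

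UMIs were summed per library and group and fitted with edgeR 4.0.16 in R 4.3.3 (TMM, filterByExpr, quasi-likelihood F test, Benjamini-Hochberg). Class and zone fits had the library as a block, the genotype fit had none. The scripts were tested on simulated data. TMM factors are computed per fit, so a library's level of a gene differs somewhat between the class and genotype results. In the tables of alternatives, settings were DESeq2 1.42.0, no filter, doublets kept, nuclei thinned to 1000 UMIs, other zone bins and markers, single classes, a replicate block and each library left out in turn.

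The members, gene lists and rules were chosen with earlier results of these data known. Carriers named were up to 6 each way by unadjusted p for genotype, up to 12 each way by size for zone, up to 10 each way by size for class, and a set of textbook hepatic carriers. Further carriers, and the genes named from the 4 neighbouring lists, were chosen after their values were seen. A few symbols that the rule leaves out, and a few further genes, are not reported here and are not plotted, while counts over the carriers and lists include all members tested. The enzyme list's symbol Pc was not matched.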

Additional observations from a re-analysis of the deposited data

Results flagged for a closer look

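Counts below the 50 UMIs asked for were seen in 3 carriers. Slc25a31 held 12 UMIs over the 4 libraries, Slc25a41 held 6 and Slc25a54 held 9. Each is above the limit of 3 that a count of 0 allows. Slc25a31 is an adenine nucleotide translocase known from the testis and Slc25a41 an ATP-Mg/phosphate carrier relative. These counts are too few for a comparison between classes, zones or genotypes.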

How the results depend on the processing

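Of the values for single carriers under alternatives other than a left-out library, 109 of the zone results stayed on their side of the threshold and 9 lost the call, 167 of the class results stayed, 13 lost the call and 5 turned, and 69 of the genotype results stayed and 3 turned. The cause was not tested for any of these. Without a filter on low counts, 5 carriers passed on the pericentral side and 4 were lower in hepatocyte-like nuclei. With nuclei thinned to 1000 UMIs, 7 passed on the periportal side and 14 were higher in hepatocyte-like nuclei, and the genotype values of Slc25a44 and Slc25a17 became -0.22 and -0.0023. Against stellate or mesenchymal-like nuclei alone, the class values of Slc25a37 and Slc25a28 became 0.075 and 0.049. Slc25a37 became 0.16 against macrophage-like nuclei alone, and Slc25a28 became 0.0037 against B-like nuclei alone and 0.058 without the filter. Without the Cyp2b9-led hepatocyte-like cluster, a check chosen after seeing the data, the zone counts were 14 and 3. Shares of all genes passing under these alternatives are not given here.

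With each library left out in turn, 3 to 5 carriers passed on the pericentral side, 9 to 14 on the periportal side, 23 to 25 were higher and 4 to 9 lower in hepatocyte-like nuclei, and 0 to 1 passed for genotype by zone. For genotype, 0 to 2 carriers passed in endothelial-like, 0 to 3 in stellate or mesenchymal-like, 0 to 1 in macrophage-like and 0 to 1 in each direction in B-like nuclei. The genotype values ranged from -1.18 to 1.16 for Slc25a51, -0.49 to 0.68 for Slc25a37, -0.095 to 0.27 for Slc25a26, -0.19 to 0.32 for Slc25a44 and -0.25 to 0.38 for Slc25a17.

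The replicate numbers did not pair the libraries (correlation of same-numbered deviations -0.08). With a replicate block, 0 carriers passed in hepatocyte-like nuclei and in each other class, and Slc25a51 became -0.0088. Depth limits carriers with few UMIs in hepatocyte-like nuclei: Slc25a4 held 13, Slc25a24 held 17, Slc25a43 held 25, Slc25a35 held 50 and Slc25a2 held 65.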

Other observations

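Clusters that received no class name also held carriers. The values are CPM without TMM scaling from nuclei pooled over the libraries, with exact Poisson 95% intervals that cover counting error only, and no test was made. A cluster of 71 nuclei led by S100a9 and Csf3r, genes known from neutrophils, held Slc25a21 at 618 CPM (504 to 750.4), Slc25a51 at 545 CPM (439 to 670.4) and Slc25a47 at 212 CPM (148 to 295), all carriers that were highest in hepatocyte-like nuclei. Hepatocyte markers gave that cluster its highest class score (0.584, against 0.460 for the next class), at a median of 861 UMIs, and the part of free RNA in these levels was not tested. A cluster of 254 nuclei led by Siglech and Flt3, genes known from dendritic cells, held Slc25a12 at 133 CPM (104 to 167), Slc25a21 at 140.4 CPM (111 to 175) and Slc25a36 at 71.1 CPM (50.6 to 97.2). A cluster of 61 nuclei led by Cd5l and Clec4f, all from Brca1-WT replicate 1, had a median of 3768 UMIs and nearly equal scores for macrophage (0.479) and endothelial markers (0.467). It held the iron carrier Slc25a37 at 152 CPM (107 to 209.9) and Slc25a36 at 111 CPM (73.2 to 162). A cluster of 53 nuclei led by Rbfox1, Muc16 and Pkhd1 held Slc25a36 at 159.5 CPM (97.5 to 246) and Slc25a21 at 168 CPM (104 to 256).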
